A study of Mus musculus with 12 samples.

Results

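The comparison described here is the difference between ventricular myocytes from CaMKII double knockout (DKO) mice and from wild-type (WT) mice that is common to cultures with and without isoprenaline (Iso). Iso is a beta-adrenergic agonist. Affymetrix arrays of total RNA were run in 4 groups of 3: untreated WT, WT with 100 nM Iso for 24 h, untreated DKO, and DKO with 100 nM Iso for 24 h. DKO mice lack CaMKIIδ and CaMKIIγ, and all 6 animals were adult. Each mouse gave 1 untreated and 1 Iso-treated array, so the 12 arrays come from 3 WT and 3 DKO mice, numbered 1 to 3 here within each genotype. The 2 arrays of a mouse were averaged, which makes the difference the mean of DKO minus WT without Iso and DKO minus WT with Iso. Of 24704 genes on the array, 13737 had a probe set above its array's median on at least 3 of the 12 arrays and were compared. The other 10967 were too dim to be tested.

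All cells were ventricular myocytes freed by enzyme perfusion of the heart and then cultured, so each value is a bulk level of 1 preparation. The sources used here do not give how the alleles were deleted, in which cells, or on which strain background. Genotype therefore cannot be told apart from anything else that differed between the 3 DKO and the 3 WT mice. Fewer cells of a type and less RNA per cell cannot be told apart either.

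CaMKII is a protein kinase that calcium-bound calmodulin switches on and that can stay active by phosphorylating itself. In the heart muscle cell the delta isoform is the most abundant and gamma the next. The kinase phosphorylates calcium channels and pumps, class IIa histone deacetylases and inflammatory signalling proteins, and it is known for its part in pathological growth, arrhythmia and chemokine production after injury. The study asked whether histone H3 serine phosphorylation under Iso goes with changes in gene expression.

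The targeted genes were read first, since they check the labels. In log2 units, Camk2g was at 4.78, 5.23 and 5.41 in untreated WT cultures and at 5.40, 5.71 and 5.80 in WT cultures with Iso. It read 4.16, 3.57 and 4.20 on the untreated DKO arrays and 3.88, 3.89 and 4.11 on the DKO arrays with Iso. No DKO array reached the lowest WT array, and mouse means were 5.39 ± 0.27 in WT and 3.97 ± 0.22 in DKO (SD, n = 3 each). The log2 difference was -1.42 (SE 0.16, limma, Benjamini-Hochberg adjusted p = 0.0132). Camk2d read 7.94, 8.09 and 7.96 on untreated WT, 8.10, 8.42 and 7.99 on WT with Iso, 7.85, 7.91 and 7.36 on untreated DKO and 7.75, 7.98 and 7.71 on DKO with Iso. Within each treatment its DKO arrays all lay below its WT arrays, and so did the mouse means. Across treatments single arrays overlapped, since DKO array 2 with Iso (7.98) was above untreated WT arrays 1 and 3. Its log2 difference of -0.32 (SE 0.13) had a limma adjusted p of 0.485. The sources used here do not give the exons that the Camk2d probe set covers, and a probe set outside the deleted exons would check nothing. Camk2a, at -0.18 log2, and Camk2b, at -0.19, had adjusted p-values of 0.749 and 0.708. Camk2g lost its call without DKO mouse 1, WT mouse 2 or WT mouse 3, with an adjusted p of at most 0.0957.

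In all, 40 of 13737 genes (0.291%) passed an adjusted p of 0.05, 15 higher in DKO (0.109%) and 25 lower (0.182%). At an unadjusted p under 0.05 there were 1330 genes (9.68%), 624 higher and 706 lower, where 687 would be expected by chance. The median log2 difference over all genes was -0.0026 and the median size 0.101. The smallest called difference was 0.65 log2 in size, and 25 of the 41 genes with a difference of at least 1 log2 were called. Mouse values did not overlap between genotypes in any of the 40 called genes, against 2173 of all genes (15.8%). Single arrays did not overlap in 30 of the 40, 9 higher and 21 lower, against 150 of all genes (1.09%). These separations use the same values as the test and add nothing independent to it. Gene models of the called set were 28 protein-coding genes, 8 pseudogenes of which 3 are transcribed, 2 long non-coding RNAs, 1 microRNA and 1 small nucleolar RNA.

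The calls rested on few mice. Without DKO mouse 1, 7 genes were called, and the same 7 were called without WT mouse 2: Tpm2, Il15 and 1810037I17Rik, higher, and Rps3a2, Esd, Abhd1 and Ociad2, lower. These 7 were called under every alternative tried. The other 33 were each lost without DKO mouse 1 and without WT mouse 2, although no difference of the 40 changed sign under any alternative. One array stood apart: untreated DKO array 3 had a median correlation of 0.956 with the other arrays, where the others had 0.984 to 0.988. Without its mouse, 91 genes were called, all 40 among them. Without that array alone, in a fit of 11 arrays with the mouse as a random block, 247 genes were called and 37 of the 40 were among them.

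**Figure D1:**
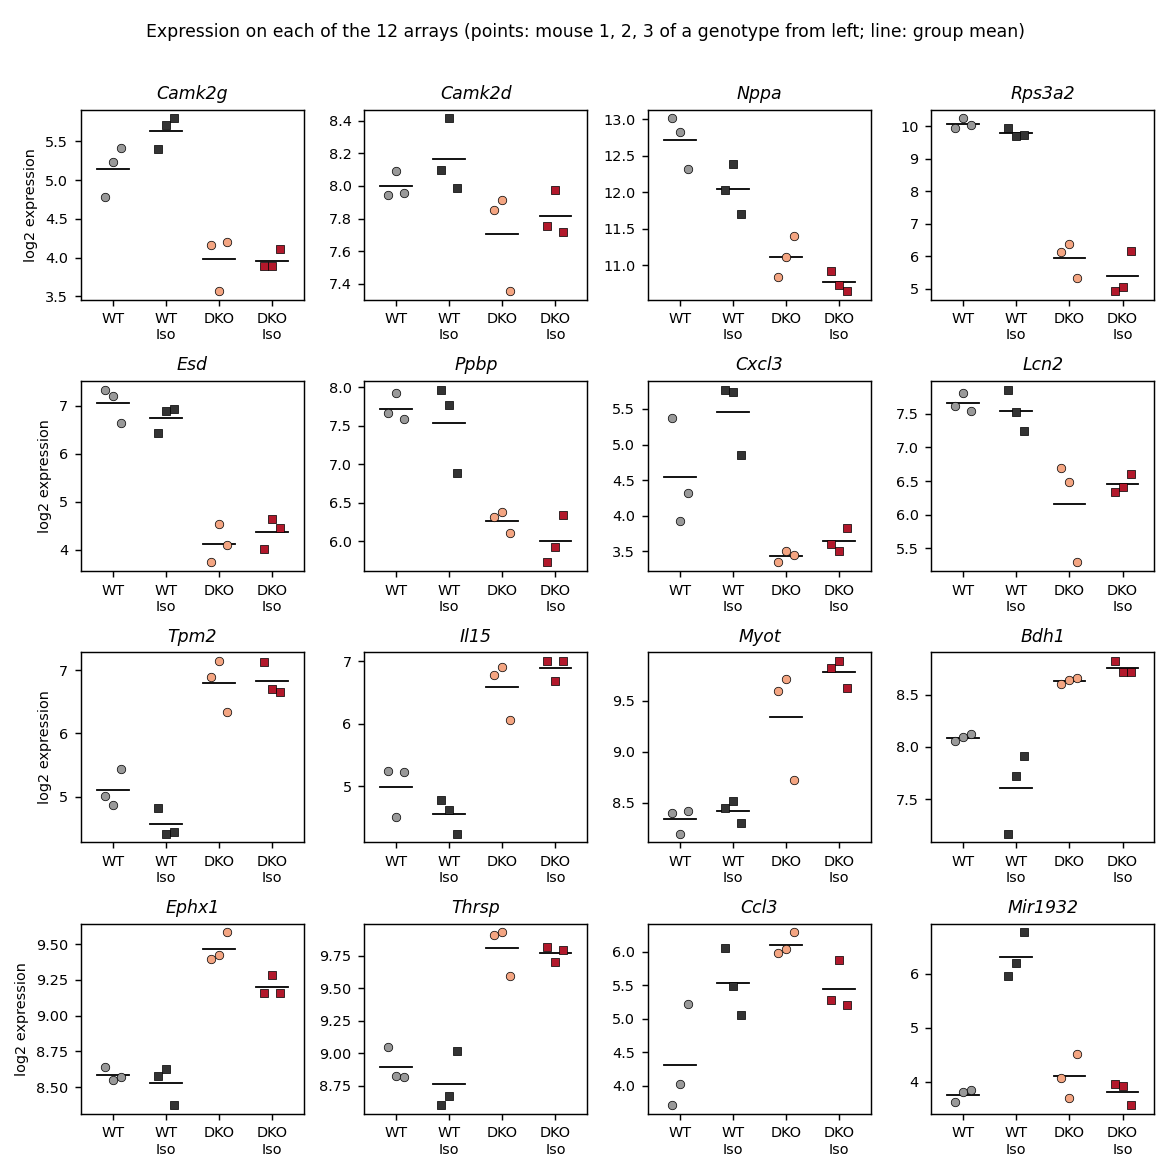
Expression (log2, vertical axis, scaled per panel) of 16 genes on each of the 12 arrays. Points from left to right in a group are mice 1, 2 and 3 of that genotype and lines are group means. Camk2g, Nppa, Rps3a2, Esd, Ppbp, Cxcl3 and Lcn2 are lower on all 6 DKO arrays, Tpm2, Il15, Myot, Bdh1, Ephx1 and Thrsp are higher on all 6, and Camk2d, Ccl3 and Mir1932 overlap.

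Among muscle genes, tropomyosin 2 and myotilin were higher in DKO and atrial natriuretic peptide was lower. Tpm2 encodes beta-tropomyosin, which lies along the thin filament and is found mainly in slow skeletal and smooth muscle. It read 5.01, 4.87 and 5.43 on untreated WT, 4.83, 4.42 and 4.44 on WT with Iso, 6.90, 7.14 and 6.34 on untreated DKO and 7.13, 6.71 and 6.66 on DKO with Iso. Every DKO array was above every WT array, by 1.98 log2 on average (SE 0.15, a 3.94-fold difference, limma adjusted p = 0.00140). Its relatives did not pass the test: Tpm1, the main cardiac tropomyosin, differed by 0.18 log2 (adjusted p = 0.667), Tpm4 by 0.23 (0.589), and Tpm3 had an adjusted p of 0.994. Myot encodes a Z-disc protein that binds alpha-actinin and filamin. Its WT arrays read 8.20 to 8.52 and its DKO arrays 9.59, 9.71 and 8.72 untreated and 9.82, 9.89 and 9.63 with Iso. The log2 difference was 1.18 (SE 0.16, limma adjusted p = 0.0248). The low DKO value is that of untreated array 3, which still lay above WT. Its call was lost without any 1 of the mice other than DKO mouse 3, with an adjusted p of at most 0.153.

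Nppa encodes atrial natriuretic peptide, a hormone that lowers blood pressure and that ventricular myocytes express again under load. It read 13.02, 12.82 and 12.32 on untreated WT and 12.03, 12.39 and 11.71 on WT with Iso. On untreated DKO it read 10.84, 11.11 and 11.39, and on DKO with Iso 10.92, 10.73 and 10.65. The groups did not overlap, and the log2 difference of -1.44 (SE 0.16, 2.72-fold, limma adjusted p = 0.0123) was -1.61 without Iso and -1.28 with it. The related hormone Nppb was level, at 12.90 ± 0.08 in WT and 12.98 ± 0.07 in DKO mice (SD, n = 3 each, adjusted p = 0.848). Of 19 tested genes of the stretch and hypertrophy list, Nppa alone was called. At an unadjusted p under 0.05, 5 were lower (Nppa, Myh7, Ankrd1, Xirp1 and Timp1) and Ccn2 was higher, against 5.14% and 4.54% of all genes. The list's median was -0.08 log2, at -0.13 without Iso and 0.04 with it. Myh7, the slow myosin heavy chain, read 4.31, 4.60 and 3.97 on untreated WT, 4.17, 4.57 and 3.87 on WT with Iso, 3.38, 3.51 and 3.44 on untreated DKO and 3.49, 3.15 and 3.58 on DKO with Iso. No DKO array reached the lowest WT array, but its log2 difference of -0.82 (SE 0.16) had a limma adjusted p of 0.132. Its DKO values lay near the array median of 3.31, where a fold can be understated. Myh7 stayed uncalled under 16 of 20 alternatives and was called under 4, with adjusted p-values from 0.0148, without untreated DKO array 3 in the 11-array fit, to 0.754. Nppa lost its call without DKO mouse 1, WT mouse 1 or WT mouse 2, with an adjusted p of at most 0.0753.

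Nppa is also an atrial marker, and other atrial genes were high in some WT cultures. Sln, which encodes the atrial calcium pump inhibitor sarcolipin, read 8.33 and 8.11 on WT arrays 1 and 2 with Iso and 3.27 on the third. Myl7, the atrial myosin light chain, read 8.16, 7.93 and 4.82 on the same arrays. Sln differed by -1.56 log2 (adjusted p = 0.610) and Myl7 by -0.84 (adjusted p = 0.724). Over the 6 tested atrial markers other than Nppa the mean level was 4.40 to 6.02 on WT arrays and 4.65 to 5.07 on DKO arrays. Their median difference was -0.16 log2, 4 of 6 were below 0 and none was called. On WT array 3 the mean of those 6 markers was 4.40 untreated and 4.51 with Iso. Nppa read 12.32 and 11.71 there, its lowest WT value in each treatment and above all 6 DKO arrays. The part of atrial cells in the Nppa difference was not tested. The 16 ventricular markers, Myh6, Ttn, Ryr2 and Tnnt2 among them, had a mean of 11.5 to 11.8 on every array and a median difference of 0.01 log2. No member had an unadjusted p under 0.05, so the markers of this list were present and level. Some lay near the top of the scale, such as Myl2 at 13.6 in both genotypes, where the highest array value was 13.8.

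Contractile and calcium genes were read next as lists. Of 27 sarcomere and Z-disc genes none was called, and 5 were lower at an unadjusted p under 0.05 (5.14% of all genes were) and none higher (4.54%): Myh7, Ankrd1 at -0.65 log2, Tcap at -0.46, Myom2 at -0.37 and Xirp1 at -0.37. Of 23 calcium handling genes, Itpr2 was called. It encodes the inositol trisphosphate receptor of cardiac myocytes, and it read 3.77, 4.04 and 3.96 on untreated WT, 4.50, 4.26 and 4.10 on WT with Iso, 4.72, 4.50 and 5.29 on untreated DKO and 4.98, 5.13 and 4.86 on DKO with Iso. The lowest DKO array equalled the highest WT array to the second decimal, and the log2 difference was 0.81 (SE 0.11, limma adjusted p = 0.0219). Its call was lost without any 1 mouse but DKO mouse 3, at an adjusted p of up to 0.129. Ryr2, the calcium release channel, was at 0.22 log2, Atp2a2, the pump that refills the store, at -0.10 and Pln, which restrains that pump, at -0.02, none of them called. Sri, which encodes the calcium-binding protein sorcin, was higher on all 6 DKO arrays by 0.63 log2 (SE 0.11) with an adjusted p of 0.0734.

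In the list of CaMKII and related calmodulin kinases, 15 genes were tested and Camk2g was the one called. At an unadjusted p under 0.05, 5 were lower and none higher, against 5.14% and 4.54% of all genes: Camk2g, Camk2d, Mylk3 at -0.68 log2 (adjusted p = 0.140), Dapk1 at -0.33 and Camk1 at -0.30. Mylk3 encodes the cardiac myosin light chain kinase, and the genotypes did not overlap on single arrays. The list's median was -0.13 log2. Downstream of the kinase, no gene of the list of MEF2 factors, class IIa histone deacetylases and heart transcription factors was called. Of its 22 members 5 were lower at an unadjusted p under 0.05 and none higher, against the same shares of all genes: Nr4a1, Nr4a3, Hand2, Tbx20 and Mef2c. Nr4a1, an orphan nuclear receptor and MEF2 target, differed by -0.64 log2 (SE 0.12, adjusted p = 0.111), Mef2a by -0.12, Mef2d by -0.29 and Hdac4 by -0.10. Of 19 genes of calcineurin and NFAT, none had an unadjusted p under 0.05. Rcan1, the calcineurin inhibitor that NFAT induces, was at 0.23 log2, and the catalytic subunits Ppp3ca and Ppp3cb were at -0.27 and -0.40. Among 26 chromatin genes, none was called and Hdac1 alone had an unadjusted p under 0.05, with Ezh2 at -0.26 log2.

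Chemokines and other inflammatory genes made up a second set, with members on both sides. Ppbp and Cxcl3 encode CXC chemokines that draw neutrophils, and they lie 2 places apart among the tested genes of their chromosome. Their start regions are shown because both genes were lower in DKO and because one of them holds matches to the motif of NF-kB, a factor that switches on many chemokine genes. Each is the window around the gene's start in RefSeq's GRCm38.p6 table, 5′ to 3′ on the gene's strand, with capitals marking motif matches. The Cxcl3 window is chr5:90785851-90786150 on the plus strand and the Ppbp window chr5:90768268-90768567 on the plus strand.
Cxcl3: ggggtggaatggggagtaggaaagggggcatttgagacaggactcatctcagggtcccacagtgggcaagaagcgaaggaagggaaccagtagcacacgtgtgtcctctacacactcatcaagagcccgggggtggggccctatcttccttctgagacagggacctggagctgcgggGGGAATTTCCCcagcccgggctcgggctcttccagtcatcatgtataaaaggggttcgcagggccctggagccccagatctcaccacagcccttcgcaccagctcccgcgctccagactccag
Ppbp: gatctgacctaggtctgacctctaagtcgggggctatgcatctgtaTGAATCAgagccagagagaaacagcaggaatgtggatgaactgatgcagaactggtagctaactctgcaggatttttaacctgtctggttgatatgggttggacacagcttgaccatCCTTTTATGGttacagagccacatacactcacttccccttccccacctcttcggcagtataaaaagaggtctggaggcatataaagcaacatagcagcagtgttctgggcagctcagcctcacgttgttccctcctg
In Cxcl3 the capitals mark 2 overlapping NF-kB matches. In Ppbp they mark an AP-1 match (TGANTCA) and a match to the CArG box of serum response factor. Both strands were searched. Among the 15 lower genes with a window, 1 (6.67%) held an NF-kB match, against 6.16% of the 10475 tested genes with a window. An AP-1 match was in 2 of 15 (13.3%) against 6.42%, and a CArG match in 2 of 15 (13.3%) against 1.76%, Cyp1a1 being the other gene with one. None of the 15 held a CRE match (TGACGTCA, 3.15% of tested genes) or a MEF2 match (2.49%). None of the 8 higher genes with a window held a match to any of the 5 motifs. A match is a description of the letters only.

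Ppbp read 7.66, 7.93 and 7.59 on untreated WT, 7.97, 7.77 and 6.89 on WT with Iso, 6.32, 6.38 and 6.11 on untreated DKO and 5.73, 5.93 and 6.34 on DKO with Iso. The groups did not overlap, and the log2 difference was -1.50 (SE 0.16, limma adjusted p = 0.0123). Cxcl3 read 5.37, 3.93 and 4.32 on untreated WT, 5.77, 5.73 and 4.86 on WT with Iso, 3.35, 3.50 and 3.45 on untreated DKO and 3.60, 3.51 and 3.83 on DKO with Iso. It too was lower on all 6 DKO arrays, with differences of -1.11 log2 without Iso and -1.81 with it and a mean of -1.46 (SE 0.22, limma adjusted p = 0.0456). The 4 other tested chemokines of that row of genes, looked up after those values were seen, were Pf4 at -0.69 log2 (adjusted p = 0.182), Cxcl5 at -0.36, Cxcl1 at -0.33 and Cxcl2 at -0.16. None of these 4 was called. All 4 were below 0, where the median of all genes was -0.0026 log2, but Cxcl2 was at 0.26 without Iso and -0.58 with it. Mouse means of Cxcl5 (3.71 in WT and 3.35 in DKO) and Cxcl1 (4.05 and 3.73) lay near the array median of 3.31. So did the DKO values of Cxcl3. The calls of Ppbp and Cxcl3 were both lost without DKO mouse 1 or WT mouse 2, and also without WT mouse 1 for Ppbp and DKO mouse 2 for Cxcl3, at adjusted p-values of up to 0.0791 and 0.237. Cxcl3 was also lost with no filter on dim genes.

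Il15 was higher in DKO. It encodes a cytokine that sustains natural killer and memory T cells and that muscle cells make. It read 5.25, 4.51 and 5.22 on untreated WT, 4.79, 4.62 and 4.25 on WT with Iso, 6.79, 6.91 and 6.07 on untreated DKO and 7.01, 6.68 and 7.00 on DKO with Iso. No arrays overlapped, and the log2 difference was 1.97 (SE 0.14, a 3.92-fold difference, limma adjusted p = 0.00140). Its receptor chain Il15ra differed by -0.16 log2 (adjusted p = 0.838). Lcn2 encodes lipocalin 2, which binds bacterial siderophores and is made in inflamed tissue. Its WT arrays read 7.61, 7.81 and 7.54 untreated and 7.86, 7.52 and 7.24 with Iso, and its DKO arrays 6.70, 6.48 and 5.29 and then 6.33, 6.41 and 6.61. All DKO arrays were lower, by 1.30 log2 on average (difference -1.30, SE 0.16, limma adjusted p = 0.0201), with the lowest value on untreated DKO array 3. Clec4d, a lectin receptor of macrophages and neutrophils, was lower by 1.00 log2 (SE 0.12, adjusted p = 0.0178), with WT arrays from 5.54 to 6.13 and DKO arrays from 4.39 to 4.96. Lcn2 and Clec4d lost their calls without any 1 mouse other than DKO mouse 3, at adjusted p-values of up to 0.139 and 0.114.

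Of 29 tested genes in the list of inflammatory cytokines and NF-kB targets, 2 were called higher (Il15 and Ccl3) and 1 lower (Lcn2). At an unadjusted p under 0.05, 3 were higher and 9 lower, against 4.54% and 5.14% of all genes. The 9 lower were Lcn2, Ccl2, Ccl5, Ptgs2, Il1b, Vcam1, Il6, Cxcl5 and Cxcl1. The third higher gene was Tnf, at 0.33 log2. The list's median was -0.04 log2, near that of all genes. Ccl2, the monocyte chemokine, differed by -0.79 log2 (SE 0.13, adjusted p = 0.0617) and Ccl5 by -0.67 (SE 0.11, adjusted p = 0.0634), just outside the threshold. Ccl5's difference was -0.01 log2 without Iso and -1.32 with it. None of 27 interferon-stimulated genes was called, with 2 higher and 3 lower at an unadjusted p under 0.05, against 4.54% and 5.14% of all genes.

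Markers of other cell types were read beside these genes. Of 19 tested macrophage and leukocyte markers none was called, 16 were below 0 and the median was -0.21 log2, at -0.03 without Iso and -0.35 with it. At an unadjusted p under 0.05, 6 were lower (5.14% of all genes were) and none higher (4.54%): Fcer1g at -0.58 log2, Tyrobp at -0.57, Cd14 at -0.55, Fcgr1 at -0.54, Cd74 at -0.39 and Mrc1 at -0.22. The mean of the list was 4.95 to 5.07 on the WT arrays, 4.90 to 5.13 on untreated DKO and 4.54 to 4.76 on DKO with Iso. Ptprc, Ccr2, Cd79a, S100a8 and S100a9 were too dim to be tested. Platelet genes are in the same place, since Ppbp and Pf4 are both platelet chemokines. Of 6 red cell and platelet markers Ppbp was called, 5 were below 0 and Gp9 was at 0.03 log2. The mean of the list, which includes Ppbp itself, was 6.28 to 6.70 on WT and 5.63 to 6.41 on DKO arrays. Of 17 endothelial markers 14 were above 0, with a median of 0.17 log2 (-0.0026 over all genes), at 0.40 without Iso and 0.01 with it. At an unadjusted p under 0.05, 4 were higher (4.54% of all genes were): Robo4 at 0.48 log2, Kdr at 0.40, Flt1 at 0.37 and Tek at 0.35. Cldn5, at -0.60, was lower at that level (5.14% of all genes were). Fibroblast markers (17 tested, median -0.06), smooth muscle and pericyte markers (12, 0.06) and neuronal, Schwann and mesothelial markers (8, -0.19) had no called member. The part of these cells in the chemokine and Lcn2 differences was not tested.

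**Figure D2:**
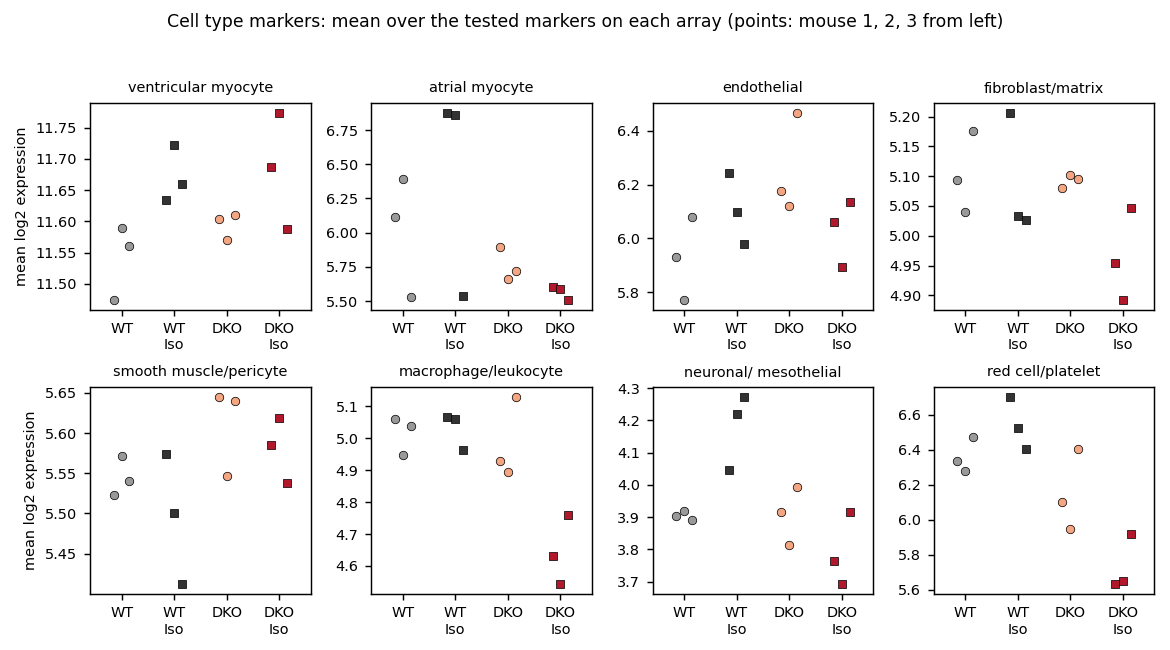
Mean log2 expression of the tested markers of 8 cell types on each array (vertical axes scaled per panel), with points for mice 1, 2 and 3 of each genotype from left to right in each of the 4 groups. Ventricular markers lie between 11.5 and 11.8 throughout, atrial markers, here with Nppa among them, reach 6.88 on a WT array with Iso, and macrophage markers are lowest on the 3 DKO arrays with Iso.

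Metabolic and detoxifying genes were called on both sides. Thrsp, a regulator of fatty acid synthesis in liver and fat, read 9.05, 8.82 and 8.81 on untreated WT, 8.60, 8.67 and 9.02 on WT with Iso, 9.91, 9.93 and 9.59 on untreated DKO and 9.82, 9.70 and 9.80 on DKO with Iso. It was higher on every DKO array, by 0.96 log2 (SE 0.10, limma adjusted p = 0.00874). Bdh1, the mitochondrial enzyme that oxidises the ketone body beta-hydroxybutyrate, read 8.05, 8.09 and 8.12 on untreated WT, 7.17, 7.72 and 7.91 on WT with Iso, 8.60, 8.65 and 8.66 on untreated DKO and 8.82, 8.72 and 8.72 on DKO with Iso. The DKO arrays were again all above the WT arrays, and the log2 difference was 0.85 (SE 0.12, adjusted p = 0.0304), being 0.55 without Iso and 1.15 with it. Ephx1, the microsomal epoxide hydrolase, had WT arrays of 8.38 to 8.64 and DKO arrays of 9.16 to 9.58, a difference of 0.78 log2 (SE 0.09, adjusted p = 0.0145). Lower in DKO were 2 enzymes outside the naming rule, picked after their values were seen: Mgst1, a membrane glutathione transferase, at -0.79 log2 (SE 0.09, adjusted p = 0.0135), and Cyp1a1, a target of the aryl hydrocarbon receptor, at -0.65 (SE 0.10, adjusted p = 0.0412). Both lay lower on all 6 DKO arrays.

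Ogdhl, a relative of the oxoglutarate dehydrogenase subunit Ogdh, read 3.93 to 4.68 on WT and 2.94 to 3.36 on DKO arrays, a difference of -1.09 log2 (SE 0.15, adjusted p = 0.0290), whereas Ogdh itself was at 0.22 and was not called. The DKO values of Ogdhl and Cyp1a1 lay near the arrays' own median of 3.31, where a fold can be understated. Of 22 glucose and ketone genes 1 was called (Bdh1), with a list median of 0.09 log2. At an unadjusted p under 0.05, 4 were higher and none lower, against 4.54% and 5.14% of all genes: Bdh1, Slc2a1, Hk2 and Slc16a1. No gene of 33 of oxidative phosphorylation had an unadjusted p under 0.05. Among 31 fatty acid genes, Acads and Hadhb were higher and Pdk4 lower at that level, against the same shares, and none was called. Of 29 NRF2 targets and redox genes 7 were lower at an unadjusted p under 0.05 and none higher, against 5.14% and 4.54% of all genes. None was called, and the median was -0.09 log2, at 0.08 without Iso and -0.19 with it. Nfe2l2 itself was at -0.61 (adjusted p = 0.252). Of 27 genes of endoplasmic reticulum stress 6 were lower and none higher at an unadjusted p under 0.05, against the same shares, Sdf2l1, Ddit3 and Atf4 among them. None was called, and the list's median was -0.05 log2, at -0.15 without Iso and 0.03 with it. Of the called metabolic and detoxifying genes, Thrsp lost its call without DKO mouse 1, WT mouse 1 or WT mouse 2 (adjusted p at most 0.0753). Bdh1, Ephx1, Ogdhl, Mgst1 and Cyp1a1 lost theirs without any 1 mouse but DKO mouse 3 (at most 0.267, for Cyp1a1).

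**Figure D3:**
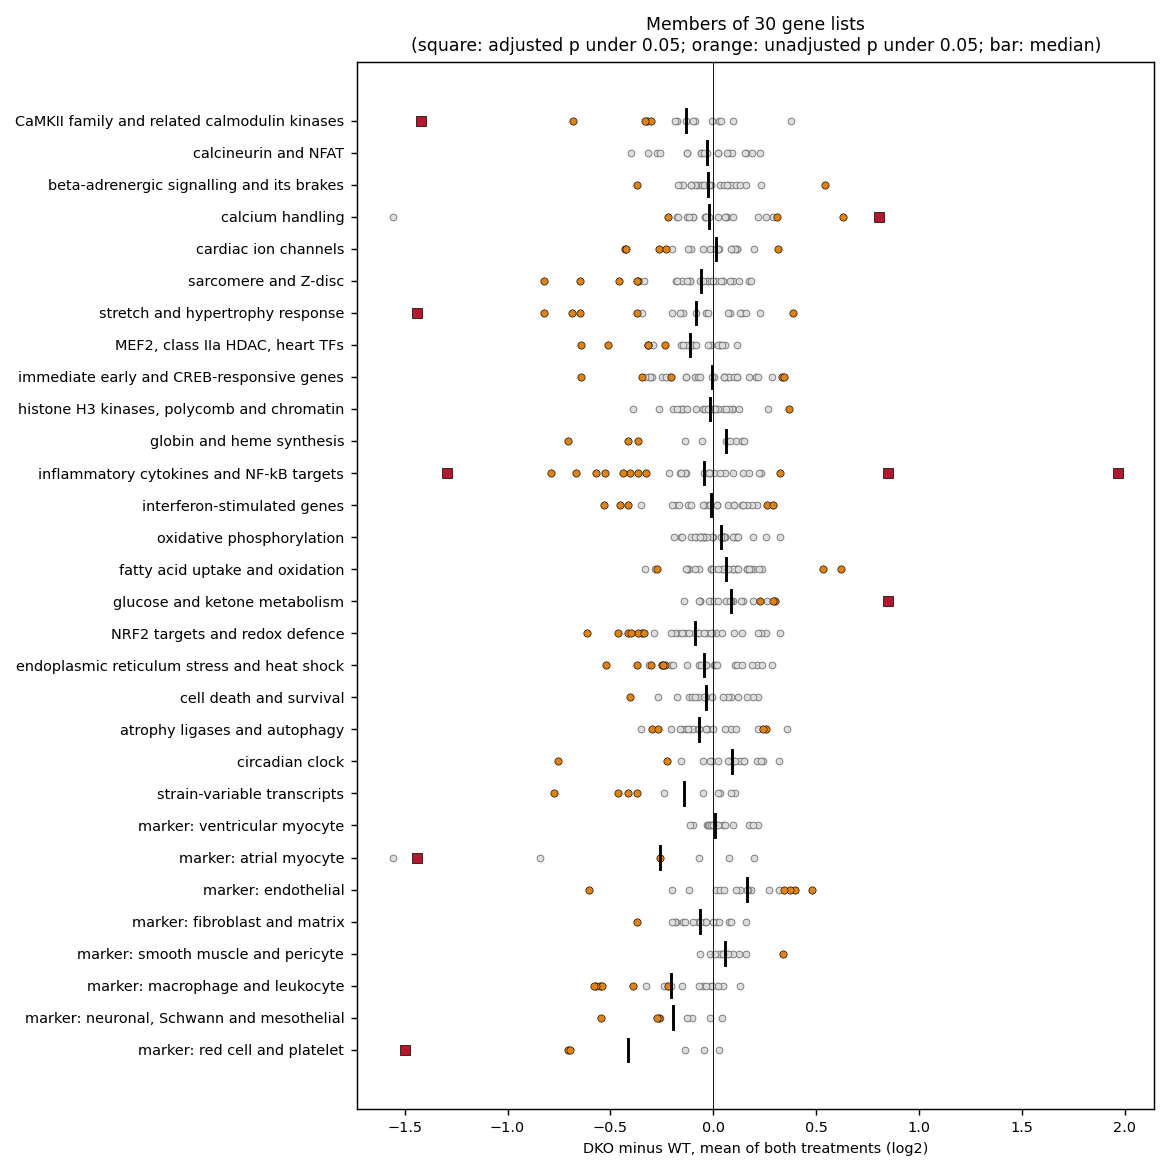
Log2 difference DKO minus WT, averaged over both treatments (horizontal axis), of every tested member of 30 gene lists (rows). Red squares passed an adjusted p of 0.05, orange points an unadjusted p of 0.05, and black bars are list medians. Most members lie near 0, and the called ones are Camk2g, Itpr2, Nppa, Lcn2, Ccl3, Il15, Bdh1 and Ppbp.

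The largest differences of all belonged to genes in none of these groups. Rps3a2, annotated as a pseudogene of ribosomal protein S3A, read 9.96, 10.25 and 10.04 on untreated WT, 9.93, 9.69 and 9.74 on WT with Iso, 6.13, 6.39 and 5.32 on untreated DKO and 4.93, 5.04 and 6.17 on DKO with Iso. The gap between the lowest WT and the highest DKO array was wider than the spread within either genotype, and the log2 difference was -4.27 (SE 0.10, 19.3-fold, limma adjusted p = 3.03e-07). The probe set named for Rps3a1, the protein-coding relative, read 3.15 to 4.30 on the 12 arrays, close to the array median of 3.31, so it gives no reading of whether that gene differed. Signal of a pseudogene and of its parent cannot be told apart by name alone, so the source of this signal is uncertain, and this holds for Psmb5-ps and Rpl30-ps8 below as well. Esd, esterase D, a hydrolase of S-formylglutathione, read 7.34, 7.21 and 6.64 on untreated WT, 6.44, 6.89 and 6.94 on WT with Iso, 3.74, 4.55 and 4.11 on untreated DKO and 4.01, 4.65 and 4.46 on DKO with Iso. No arrays overlapped, and the difference was -2.66 log2 (SE 0.17, 6.31-fold, adjusted p = 0.00113). Abhd1, an alpha/beta hydrolase gene that RefSeq annotates as a transcribed pseudogene in this assembly, was lower by 2.31 log2 (SE 0.19, adjusted p = 0.00225), with WT arrays of 5.58 to 6.89 and DKO arrays of 3.71 to 4.63. Ociad2, of the OCIA domain family of membrane proteins, was lower by 1.49 log2 (SE 0.11, adjusted p = 0.00140) with WT arrays of 7.50 to 7.98 and DKO arrays of 5.51 to 6.54, whereas Ociad1, its neighbour in the family, was at -0.10 (adjusted p = 0.813).

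Hyi and Rnls, also annotated as transcribed pseudogenes in this assembly, were lower on all 6 DKO arrays. Hyi, a hydroxypyruvate isomerase homologue, was at -1.81 log2 (SE 0.18, adjusted p = 0.00777) and Rnls, renalase, a flavoenzyme that oxidises isomers of reduced NAD, at -1.28 (SE 0.16, adjusted p = 0.0212). The difference of Rnls was -1.31 without Iso and -1.24 with it. Psmb5-ps, a proteasome subunit pseudogene, was lower by 1.43 log2 (SE 0.16, adjusted p = 0.0132) and Rpl30-ps8, a ribosomal protein pseudogene, higher by 1.40 (SE 0.22, adjusted p = 0.0495), with overlap of its arrays. Gnb3, a G protein beta subunit, was higher by 0.92 log2 (SE 0.11, adjusted p = 0.0152) and Ndrg4, a member of the NDRG family that is expressed in heart and brain, by 0.86 (SE 0.11, adjusted p = 0.0178), both on all 6 DKO arrays. Tmem171, a membrane protein gene, was higher by 0.83 log2 (SE 0.12, adjusted p = 0.0412), with overlap of single arrays. The remaining calls were 5 predicted genes, all lower, from -0.84 log2 for Gm11627 to -2.00 for Gm26782, and Lgi1 at -0.97, Ctla2a at -0.90 and Thbs1 at -0.88, named after their values were seen. Without single mice these calls were lost at highest adjusted p-values of 0.0753 for Hyi to 0.267 for Ctla2a, in each case without DKO mouse 1 and without WT mouse 2. In the fit of 12 arrays with the mouse as a random block Rpl30-ps8 (adjusted p = 0.117), Gm35498 (0.123) and Lgi1 (0.0645) were also lost. On DKO arrays Lgi1 read 2.99 to 3.39 and Gm26782 2.53 to 3.30, near or below the array median of 3.31.

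Where the called genes lie was read from the order of genes in the table. Esd and Rps3a2 were on the chromosome of Camk2g, chromosome 14, where 5 of 518 tested genes (0.965%) were called against 0.291% overall: Camk2g, Ogdhl, Gm26782, Esd and Rps3a2. They lay 71, 141, 373 and 403 places from Camk2g in that order. All 5, Camk2g itself among them, were lower in DKO. On chromosome 3, that of Camk2d, 1 of 612 tested genes (0.163%) was called. Chromosome 5, which holds neither targeted gene, had 5 called of 853 (0.586%). Of the 40 tested genes nearest to Camk2g, 20 on each side, none was called and the median size of the difference was 0.0960 log2. Of these 40, 6 had an unadjusted p under 0.05, against 9.68% of all genes. Around Camk2d, 5 of 40 had an unadjusted p under 0.05, against the same share, and 1 was called, 1810037I17Rik, 10 places away. It read 9.67, 9.28 and 10.19 on untreated WT, 9.28, 9.50 and 9.04 on WT with Iso, 11.38, 11.48 and 10.46 on untreated DKO and 11.58, 11.40 and 11.63 on DKO with Iso. Its DKO arrays were all higher, by 1.83 log2 (SE 0.13, 3.55-fold, limma adjusted p = 0.00140). Dnttip2, 16 places away, was lower on all 6 DKO arrays by 1.04 log2 (difference -1.04, SE 0.20, adjusted p = 0.132), and Rpl34, 16 places away on the other side, was at -0.92 (SE 0.24, adjusted p = 0.251). The median size among the 40 was 0.129 log2. None of the 10 tested transcripts in a list of those known to vary between laboratory mouse strains was called. Of them 4 were lower at an unadjusted p under 0.05 (Nnt, Alad, Trim12a and Erdr1) and none higher, against 5.14% and 4.54% of all genes. Nnt, at -0.46 log2 (adjusted p = 0.358), was lower on all 6 DKO arrays. Whether DNA carried along with the deleted alleles has a part in these differences was not tested.

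**Figure D4:**
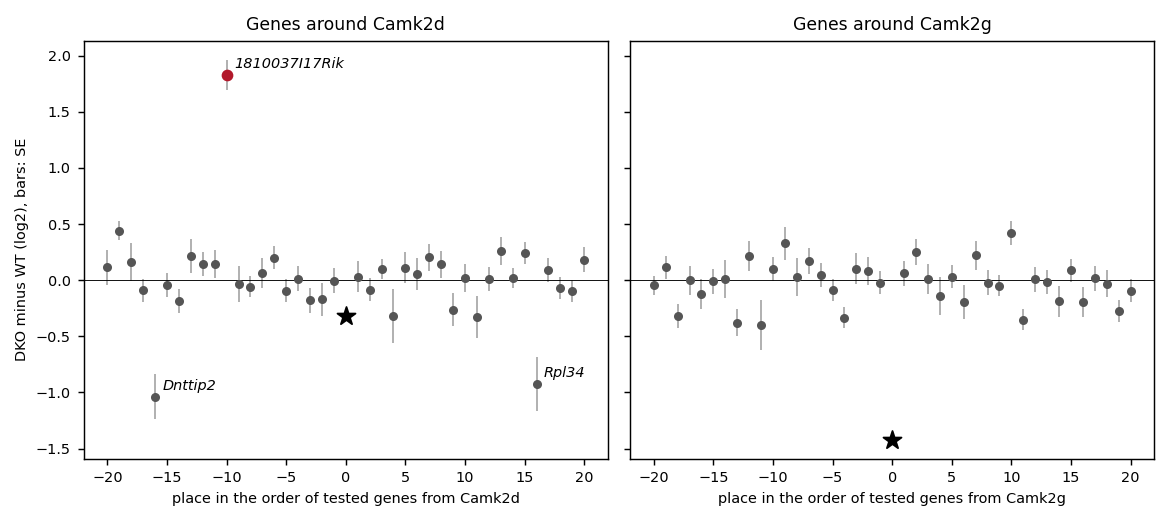
Log2 difference DKO minus WT (vertical axis, bars are SE) of the 20 tested genes on each side of Camk2d and of Camk2g, by place in the gene order (horizontal axis), with a star for the deleted gene. 1810037I17Rik, at 1.83, is the one called neighbour, and no neighbour of Camk2g reaches 0.5 in size.

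The 2 treatments were then set side by side in a fit of the 4 groups on 12 arrays. DKO minus WT was called for 28 genes without Iso (0.204%) and 42 with Iso (0.306%). Of the 40 genes of the pooled comparison, 18 were called without Iso, 25 with it, 17 in both and 14 in neither. The direction was the same in both for 38 of the 40, against 48.0% of all genes, although the pooled call favours genes whose 2 differences share a sign. A test of the difference between the differences, from the within-mouse changes, called 5 genes (0.0364%). Its unadjusted p was under 0.05 for 1535 (11.2%). Among the 40 genes it called Mir1932. The other 6 of the 7 with an unadjusted p under 0.05 were Abhd1, Atp6v1g1, Ccl3, Bdh1, Snora62 and Camk2g, with adjusted p-values of 0.293 to 0.428.

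Of those 7, the differences of Abhd1 (-1.81 log2 without Iso and -2.82 with it), Camk2g (-1.17 and -1.67) and Bdh1 (0.55 and 1.15) kept 1 sign. The other 4 had the widest gaps between treatments and are described next, a choice made after their values were seen. Of these 4, Atp6v1g1 and Snora62 also kept 1 sign, and Ccl3 and Mir1932 did not. Atp6v1g1, which encodes a G subunit of the proton pump that acidifies lysosomes, read 10.68, 10.39 and 10.21 on untreated WT and 7.85, 7.57 and 9.29 on WT with Iso, against 10.55, 10.53 and 10.79 on untreated DKO and 10.50, 10.31 and 10.45 on DKO with Iso. The WT arrays with Iso were thus the ones apart: the difference was 0.20 log2 without Iso and 2.18 with it, for a pooled 1.19 (SE 0.18, adjusted p = 0.0446), and the test between treatments had an unadjusted p of 0.00179 and an adjusted p of 0.293. Ccl3, a macrophage chemokine, read 3.72, 4.02 and 5.21 on untreated WT, 6.05, 5.49 and 5.05 on WT with Iso, 5.98, 6.04 and 6.29 on untreated DKO and 5.27, 5.88 and 5.20 on DKO with Iso. Its difference was 1.78 log2 without Iso and -0.08 with it, for a pooled 0.85 (SE 0.13, adjusted p = 0.0488), and the test between treatments had an adjusted p of 0.351. Snora62, a small nucleolar RNA that guides ribosomal RNA modification, was at 1.79 without Iso and 0.37 with it (pooled 1.08, SE 0.16, adjusted p = 0.0412), with an adjusted p of 0.408 between treatments.

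Mir1932 read 3.62, 3.80 and 3.84 on untreated WT, 5.95, 6.20 and 6.76 on WT with Iso, 4.08, 3.70 and 4.51 on untreated DKO and 3.96, 3.91 and 3.57 on DKO with Iso. The WT arrays with Iso alone were high, so that the pooled difference of -1.07 log2 (SE 0.14, adjusted p = 0.0239) is the mean of 0.34 and -2.49. The test between treatments gave -2.83 log2 (limma adjusted p = 0.0232). The mature microRNA is shown because its seed, in capitals, sets which transcripts it can pair with. Its place is chr11:119390524-119390545 on the plus strand of GRCm38.p6, from RefSeq.
mmu-miR-1932: gUUGCGGAcagcgcuaggucgg
The array labelled total RNA, and the sources used here do not say whether the probe set reads the mature form, its hairpin or a host transcript. The calls of Atp6v1g1, Ccl3, Snora62 and Mir1932 were lost without DKO mouse 1, DKO mouse 2 or WT mouse 2, at adjusted p-values of up to 0.271. In the fit of 12 arrays with the mouse as a random block the adjusted p was 0.0526 for Atp6v1g1, 0.206 for Ccl3 and 0.115 for Snora62.

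**Figure D5:**
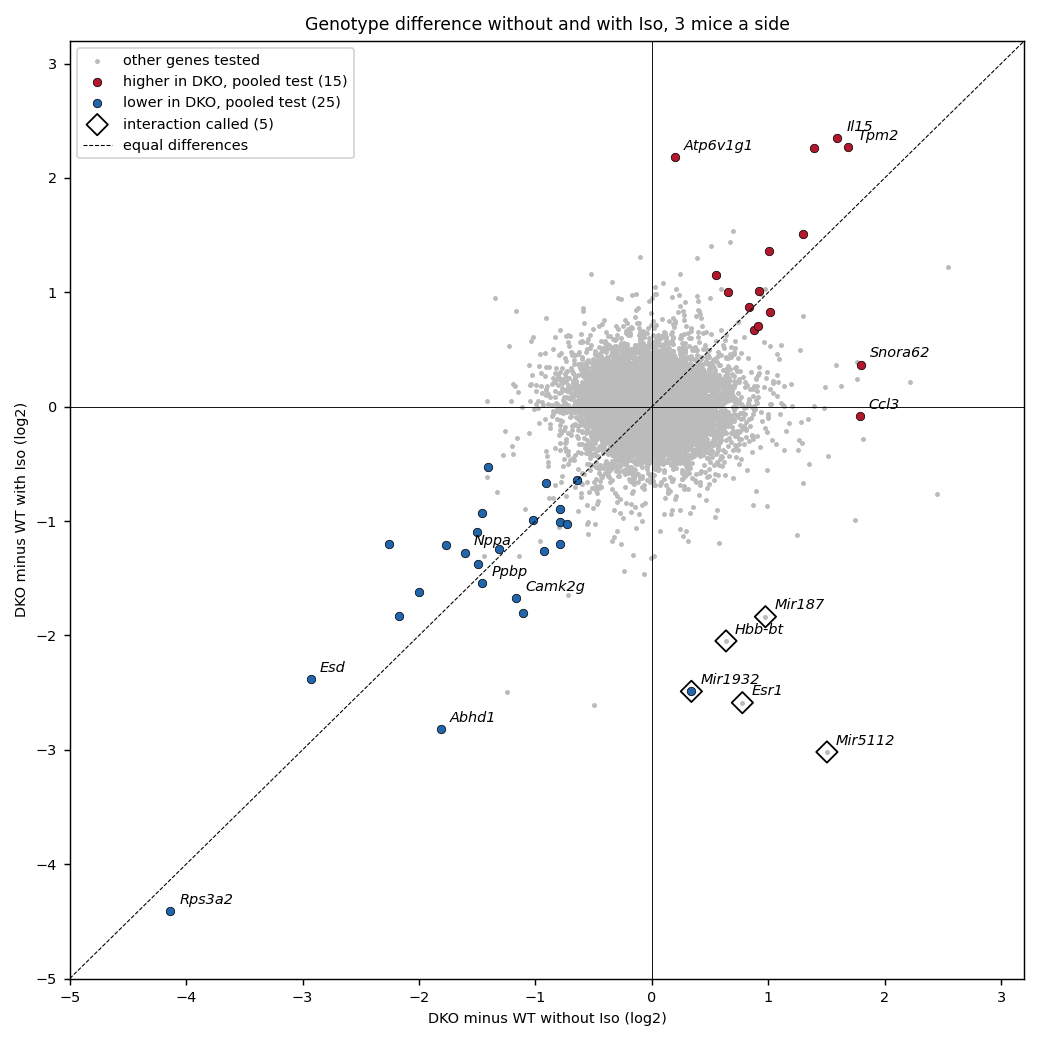
Genotype difference without Iso (horizontal axis) against the difference with Iso (vertical axis), both log2 DKO minus WT of 3 mice a side, for 13737 genes. Red and blue points are the 15 genes called higher and the 25 called lower in the pooled comparison, diamonds the 5 genes whose differences differ between treatments. Rps3a2, Esd and Ppbp lie near the dashed line of equal differences, Ccl3, Snora62 and Atp6v1g1 away from it, and Mir1932 with the diamonds.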

How the data were processed

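Total RNA of 12 cultures was measured on Affymetrix arrays. The authors deposited log2 expression values per probe set, made with RMA per the submitters' processing notes, version not given in the sources used here. RMA subtracts background and forces arrays to one distribution, so array medians were 3.31 to 3.32, and small folds at low signal are understated. No detection call was used. Their number, 12, limits the precision.

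Of 25428 probe sets, 723 had no symbol in the platform annotation; 450 of these passed the filter and 5 would be called in a fit of their own. The other probe sets gave 24704 genes, of which 24672 matched the RefSeq gene table of GRCm38.p6. The sources used here do not give the build of the array annotation, so genes are placed by order only. Genes above the array median on 3 of 12 arrays were kept.

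The 2 arrays of a mouse were averaged, and DKO and WT mice (3 each, separate animals per the labels) were compared with limma 3.58.1 in R 4.3.3 (lmFit, eBayes), with Benjamini-Hochberg adjustment over 13737 genes and a threshold of 0.05. SE is limma's moderated SE and SDs are over mice. Within-mouse changes gave the test between treatments. The scripts were tested on simulated data.

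Named genes were the 15 largest called rises and falls without predicted names, called members of 31 lists (8 of them cell markers), a fixed set and neighbours of Camk2d and Camk2g. Members, lists and tests were chosen with earlier results of these data known. Alternatives were other filters, scalings, moderation, array weights, mouse terms, a replicate block, fold and p thresholds, and leaving out each mouse or untreated DKO array 3.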

Additional observations from a re-analysis of the deposited data

Results flagged for a closer look

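The genotype difference itself differed between treatments in 5 genes by limma's test on within-mouse changes. The difference with Iso minus the difference without it was -4.52 log2 for Mir5112 (adjusted p = 0.000157), -3.37 for Esr1, -2.83 for Mir1932, -2.81 for Mir187 and -2.68 for Hbb-bt (adjusted p = 0.0232 for each of these 4). The mean of DKO was above that of WT without Iso and below it with Iso in each. In the 12-array fit the difference with Iso passed the adjusted threshold for all 5, and that without Iso for Mir5112 alone (adjusted p = 0.0195), the other 4 not passing it (adjusted p of 0.522 for Mir1932). Esr1, estrogen receptor alpha, differed by 0.78 log2 without Iso and -2.59 with it, and Hbb-bt, an adult beta-globin, by 0.64 and -2.05. Pooled over treatments, Mir1932 was called among these and the other 4 were not. Leaving out 1 mouse at a time left 1 to 4 genes called by this test, of which 1 to 3 were among these 5.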

How the results depend on the processing

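The main comparison called 40 genes. The count was 24 with no filter on dim genes, where more genes were tested, 211 with array weights, 67 with 12 arrays and the mouse as a random block (6 of the 40 lost), 75 with 12 arrays and no mouse term, 15 against a fold threshold of 0.25 log2 (limma treat), and 247 without untreated DKO array 3 with the mouse as a random block. Leaving out 1 mouse gave 7 to 91 genes. The other settings gave 31 to 60 genes. With the replicate number shared by DKO and WT mice as a block, 56 were called, 38 of the 40 among them; Ccl3 and Cyp1a1 were lost. Whether the numbers pair the mice could not be decided: deviations of same-numbered DKO and WT mice correlated at 0.0376, 0.135 and 0.232. Deviations of the untreated and the Iso array of the same mouse correlated at -0.0623 (WT mouse 1) to 0.130 (DKO mouse 3). Low values therefore also occur between arrays known to be paired. The test between treatments called 5 genes, 1 with no filter, 1 with a filter at the 25th percentile, 3 with trend and robust moderation and 1 to 4 without a mouse. No named gene or list median counted as reversed, and 21 of 31 list medians kept their sign throughout. Among uncalled named genes, the differences of Atp2a2 (-0.18 to 0.03 log2), Pln (-0.10 to 0.08) and Mef2a (-0.25 to 0.003) crossed 0 over the alternatives. With no measure of background, differences of genes near the array median cannot be bounded. Causes of the other changes were not tested.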

Other observations

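The remaining gene groups had no called member. Their counts at an unadjusted p under 0.05 stand against 4.54% of all genes higher and 5.14% lower. Of 25 genes of beta-adrenergic signalling, Grk5, a receptor kinase, was at 0.54 log2 and Adcy5, the cardiac adenylyl cyclase, at -0.37, the pair with an unadjusted p under 0.05 (list median -0.03). Among 19 ion channel genes, Kcnd2 at -0.43 log2, Kcnj5 at -0.42, Kcnj3 at -0.26 and Kcnh2 at -0.23, all potassium channel subunits, had an unadjusted p under 0.05, as did Kcne1 at 0.32 (list median 0.02). Of 31 immediate early and CREB-responsive genes, 2 were higher at that level (Fosl2 and Creb1, both at 0.34) and 3 lower (Nr4a1, Myc and Csrnp1). Of 19 circadian clock genes, Nr1d1, which encodes the repressor REV-ERB alpha, was lower on all 6 DKO arrays at -0.76 log2 (SE 0.15, limma adjusted p = 0.152), and the list's median was 0.09.

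At an unadjusted p under 0.05, none of 11 globin and heme genes was higher and 3 were lower (Hbb-bt, Alad and Hmox1, list median 0.06). That list's median was 0.20 log2 without Iso and -0.29 with it. Of 18 cell death genes 1 was lower at that level (Bak1, list median -0.04). Of 23 atrophy and autophagy genes, 2 were higher and 2 lower (list median -0.07). Of 5 sex-linked genes 1 was lower (Kdm5d, list median -0.09).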
